A study of Mus musculus with 4 samples.

Results

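The proteasome subunit genes were read out in Müller glial cells of control and *Rax* iCKO (tamoxifen-induced conditional knockout) mice. They were chosen by symbol, as the *Psma*, *Psmb*, *Psmc* and *Psmd* genes and *Psme1*, *Psme2* and *Psme3*, which gave 42 of the 24322 gene symbols in the files. Of these, 40 had a mean of at least 1 FPKM (fragment counts scaled to transcript length and to library size, so a level per length) and were tested, and *Psma8* and *Psmb11* were below it. The 40 comprised 7 genes of the α ring, 7 of the constitutive β ring, 3 immunoproteasome genes, 6 ATPases, 14 other genes of the cap (the *Psmd* genes, chaperones of its assembly included) and 3 genes of the PA28 activator.

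RNA-seq libraries were made from mTFP-positive cells sorted from the retina of 4 mice of the 129S6 strain, 1 mouse per library. Both groups carried *Rlbp1-CreERT2*, in which a promoter fragment of the Müller glial gene *Rlbp1* drives a tamoxifen-dependent Cre recombinase, and *R26-CAG-LoxP-mTFP1*, a fluorescent reporter that Cre switches on. Both groups received tamoxifen at postnatal day 4 and were harvested at postnatal day 14. The 2 *Rax* iCKO mice, numbers 7983 and 3914, were Raxflox/flox, and the 2 control mice, numbers 7984 and 3911, were Raxflox/WT, so the controls also lose a *Rax* allele wherever Cre acts. The numbers fall into a pair 7983 and 7984 and a pair 3911 and 3914, each with 1 mouse of each genotype. What the neighbouring numbers stand for (litter, day or batch) is not given in the sources used here.

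The proteasome is the protease that degrades proteins tagged with ubiquitin. Its core particle is a barrel of stacked rings, in which the α subunits (*Psma* genes) gate the entrance and the β subunits (*Psmb* genes) line the chamber and include the proteolytic sites of *Psmb5*, *Psmb6* and *Psmb7*. In immune cells, and in other cells exposed to interferon γ, *Psmb8*, *Psmb9* and *Psmb10* take the place of these catalytic subunits and form the immunoproteasome, which favours peptides suited to antigen presentation. The cap that recognises and unfolds the substrate has ATPases (*Psmc* genes) in its base and further subunits of base and lid (*Psmd* genes), and PA28 (*Psme* genes) is an alternative activator of the core.

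The promoters of *Psmb8* and of *Psmb5*, the constitutive subunit whose place Psmb8 takes, are shown because this pair had the largest gap in response between an immunoproteasome gene and its counterpart. Each sequence is the 250 bases before the RefSeq transcription start in GRCm38.p6, read along the strand of the gene. Capitals mark a match to TTCNNNGAA (the gamma-activated site of interferon γ targets), TGACNNNGC (the core of the antioxidant response element bound by NRF1 and NRF2) or TAATT (the predicted Rax-binding sequence).
Psmb8, chr17:34197945-34198194, + strand: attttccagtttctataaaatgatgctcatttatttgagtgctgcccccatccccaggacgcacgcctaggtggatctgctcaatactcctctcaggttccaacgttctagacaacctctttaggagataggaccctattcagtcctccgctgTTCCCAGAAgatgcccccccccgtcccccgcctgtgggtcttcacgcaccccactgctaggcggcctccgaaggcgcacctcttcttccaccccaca
Psmb5, chr14:54617996-54618245, - strand: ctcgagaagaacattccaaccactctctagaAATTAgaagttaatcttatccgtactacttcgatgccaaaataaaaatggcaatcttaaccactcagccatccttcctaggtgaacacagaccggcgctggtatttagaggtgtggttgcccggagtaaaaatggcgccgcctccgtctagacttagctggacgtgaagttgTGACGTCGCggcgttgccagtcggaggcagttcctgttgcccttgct
The capitals in *Psmb8* are TTCCCAGAA from 97 to 89 bases before the start. In *Psmb5* they are AATTA, which is TAATT on the other strand, from 219 to 215 bases before the start, and TGACGTCGC from 47 to 39 bases before it.

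Promoters were found for 35 of the 42 genes, in 38 windows, and both strands were searched. TTCNNNGAA was present in 1 of the 38 windows (2.63%), that of *Psmb8*, and in 7.02% of all 32851 RefSeq promoters of the same length. TGACNNNGC was present in 13.2% of the windows (*Psmb5*, *Psmb6*, *Psmc6*, *Psmd9* and *Psmd12*) and in 10.2% of all promoters. TAATT was present in 15.8% of the windows (*Psma2*, *Psmb5*, *Psmb6*, *Psmd2*, *Psmd4* and *Psmd11*) and in 25% of all promoters. GAAANNGAA, the core of the interferon-stimulated response element, was present in 7.89% of the windows (*Psmb3*, *Psmd4* and *Psmd9*) and in 7.13% of all promoters, and CCAAT in 36.8% and 33.8%. These matches describe the letters in the windows and do not show that a factor binds there.

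The depth, estimated from the whole-read steps of low FPKM values, was between 9260000 and 12700000 mapped reads per library. *Rax* had 189.1 and 181.4 FPKM in control mice 7984 and 3911 against 111 and 98.4 FPKM in *Rax* iCKO mice 7983 and 3914. Müller glial markers were high in every library, with *Rlbp1*, a retinoid-binding protein of these cells, between 1292 and 2616 FPKM. The 12 Müller glial markers summed to 17796 and 13680 FPKM in control mice 7984 and 3911, compared with 11928 and 12051 FPKM in *Rax* iCKO mice 7983 and 3914. RNA of other cell types was also present. The 8 rod markers were each lower in *Rax* iCKO within both pairs of mice, where 31.7% of all genes tested were. They summed to 1865 and 1778 FPKM in the controls and to 1240 and 1057 FPKM in *Rax* iCKO. The 5 bipolar cell markers summed to 989 and 1710 FPKM in control mice 7984 and 3911, compared with 1500 and 1868 FPKM in *Rax* iCKO mice 7983 and 3914. Of the 5, 3 were higher in both *Rax* iCKO mice than in both controls, where 15.4% of all genes tested were. The part of these cells in the members' values was not tested. In bulk samples, fewer cells of a type and less RNA per cell cannot be told apart. *Xist*, the RNA that coats the inactive X, had 24.5 and 21.2 FPKM in the controls and almost none in both *Rax* iCKO libraries. The Y-linked genes *Eif2s3y* and *Ddx3y* had 43.7 and 12.4 FPKM in mouse 7983 and were listed at 0 in the other libraries, mouse 3914 included. The sex of the mice is not given in the labels. *Xist* level and genotype coincide in these libraries, so differences that go with either cannot be told apart for any member. Of the members *Psmd10* is X-linked. With 2 mice against 2 the smallest two-sided p of an exact permutation test is 0.333.

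Proteasome genes were among the abundant transcripts of these cells. The mean FPKM of 35 of the 42 lay above the 90th percentile of all gene symbols, and together the members held 0.978% and 1.22% of all FPKM in control mice 7984 and 3911 against 0.961% and 1.18% in *Rax* iCKO mice 7983 and 3914. By mean over the 4 libraries the constitutive β ring ranged from 111 FPKM (*Psmb7*) to 397 FPKM (*Psmb2*), and the α ring from 154 FPKM (*Psma4*) to 354 FPKM (*Psma2*). The ATPases lay between 68.0 FPKM (*Psmc6*) and 217 FPKM (*Psmc5*), PA28 between 71.1 FPKM (*Psme3*) and 117 FPKM (*Psme1*), and the other cap genes between 14.9 FPKM (*Psmd9*) and 202 FPKM (*Psmd8*). The immunoproteasome genes were far lower, at 3.83 FPKM (*Psmb9*), 7.34 FPKM (*Psmb8*) and 22.7 FPKM (*Psmb10*).

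The subunits of the core, which assemble in equal numbers, had levels that were alike but not equal. Within a library the highest α gene was between 2.1 and 2.48 times the lowest, the highest constitutive β gene between 3.40 and 3.67 times, and the highest ATPase between 2.93 and 3.75 times. The other cap genes spread more widely, by 10.6 to 16.8 times, with *Psmd9* at the low end, which encodes a chaperone of base assembly and no subunit of the finished particle. The median α level was 1.38 and 1.31 times the median ATPase level in control mice 7984 and 3911, set against 1.32 and 1.20 times in *Rax* iCKO mice 7983 and 3914, so the groups overlapped.

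**Figure D1:**
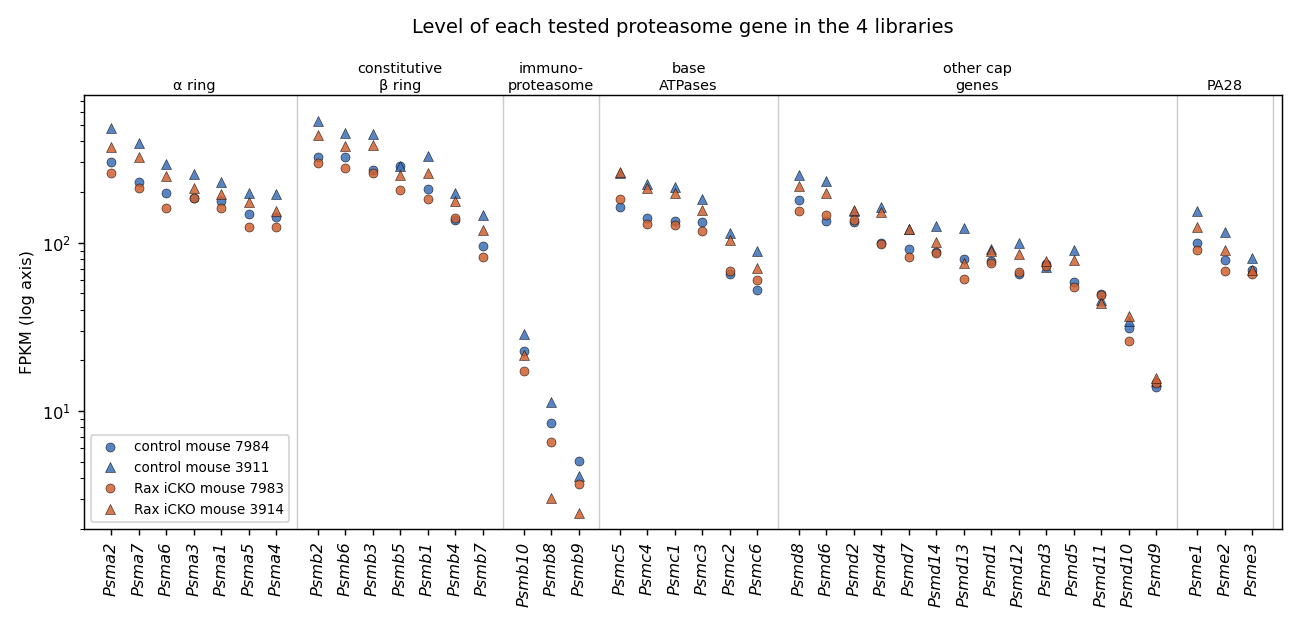
FPKM (log axis) of each of the 40 tested proteasome genes, grouped by the part of the particle they encode and ordered by mean. Blue points are control mice, orange points *Rax* iCKO mice, circles mice 7983 and 7984, and triangles mice 3911 and 3914. For most genes the triangles lie above the circles, and of the 3 immunoproteasome genes the highest, *Psmb10*, averages 22.7 FPKM.

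Differences between the genotypes were small for most proteasome genes, and none was called. On log2(FPKM + 1), 36 of the 40 genes were lower in *Rax* iCKO and 4 were higher, with a median log2 fold change of -0.17, where the median over all 12363 genes tested was -0.00444. The ratio of the means in *Rax* iCKO and control ranged from 0.483 for *Psmb8* to 1.05 for *Psmc5*, and outside the immunoproteasome the lowest was 0.675, for *Psmd13*. No member passed the test (limma, Benjamini-Hochberg adjusted p = 1.0 for every member), and over all genes 3 of 12363, or 0.0243%, did. At an unadjusted limma p under 0.05, 1 member was lower (*Psmb8*), where 1.6% of all genes were lower at that level, and no member was higher, where 1.26% of all genes were.

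The difference was of one direction in most members within both pairs of mice. In 30 of the 40 the *Rax* iCKO mouse was lower than the control of neighbouring number in both pairs, and over all genes this held for 31.7%. In 3 (*Psmc5*, *Psmd2* and *Psmd9*) it was higher in both, and over all genes this held for 30.7%. The median difference was -0.12 on the log2 scale between mice 7983 and 7984 and -0.22 between mice 3914 and 3911. The members share a library, so their directions are not independent of each other.

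The size and the count depended on the scaling and on single libraries. After quantile normalization the median log2 fold change of the members was -0.04, and 17 of 40 were lower in both pairs, against 29.6% of all genes. With FPKM rescaled to the same sum in each library the median was -0.03 while that of all genes moved to 0.12, and again 17 were lower in both pairs, where 18% of all genes were. Leaving out control mouse 3911 turned the members' median to 0.07, and leaving out *Rax* iCKO mouse 7983 turned it to 0.04. Without control mouse 7984 it was -0.43, and without *Rax* iCKO mouse 3914 it was -0.40.

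**Figure D2:**
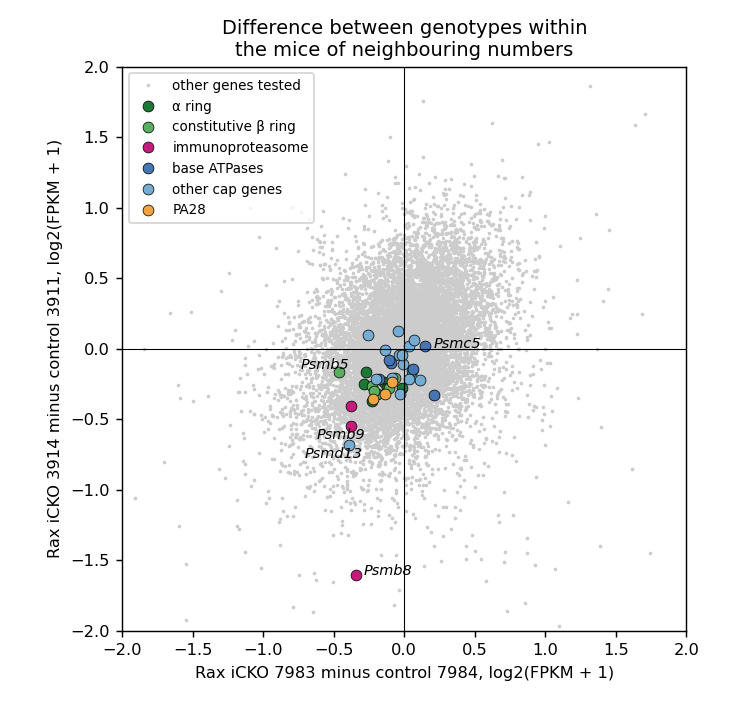
Difference between *Rax* iCKO and control in log2(FPKM + 1), for mice 7983 and 7984 on the x axis and for mice 3914 and 3911 on the y axis. Coloured points are the 40 proteasome genes by part of the particle and grey points the other genes tested, of which those beyond 2 in either direction are outside the frame. Of the 40 members, 30 lie in the lower left quadrant, most of them close to 0, and *Psmb8* lies lowest on the y axis.

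The difference between the pairs of mice was larger than that between the genotypes. The mean of mice 3911 and 3914 exceeded that of mice 7983 and 7984 in 37 of the 40 members, with a median log2 difference of 0.46, where the median of all genes was 0.01 and 50.7% were higher. In 33 members both of mice 3911 and 3914 were above both of mice 7983 and 7984, which held for 29.1% of all genes. The order 3911, 3914, 7984, 7983 from highest to lowest was seen in 24 members and in 9.70% of all genes.

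The gap between the pairs of mice was present in every constitutive part of the particle. Its median was 0.63 for the ATPases, 0.57 for the constitutive β ring, 0.48 for PA28, 0.45 for the α ring and 0.41 for the other cap genes. *Psmb2*, a β subunit without proteolytic activity and the most abundant member, had 322 and 531 FPKM in control mice 7984 and 3911 against 299 and 437 FPKM in *Rax* iCKO mice 7983 and 3914. Its spread within a group was therefore larger than the difference between the group means of 427 ± 147 and 368 ± 97.7 FPKM (SD, n = 2). The 3 members that were not higher in mice 3911 and 3914 were *Psmb8*, *Psmb9* and *Psmd11*, a lid subunit, which had 49.6 and 45.6 FPKM in the controls against 49.1 and 44.2 FPKM in *Rax* iCKO.

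Short transcripts were higher in mice 3911 and 3914 over the files as a whole. Across the 11909 genes tested with an annotated length, the difference between the pairs of mice had a Spearman correlation of -0.42 with log2 transcript length (Pearson -0.29). Across the 40 members, whose transcripts were between 766 and 4397 bases with a median of 1561, it was -0.27 (Pearson -0.23), and the median length of all genes was 3097 bases. The log2 fold change between genotypes had a Spearman correlation with length of 0.39 across the members and 0.33 across all genes. These are descriptions across genes of the same libraries, and the part of length in the members' differences was not tested.

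**Figure D3:**
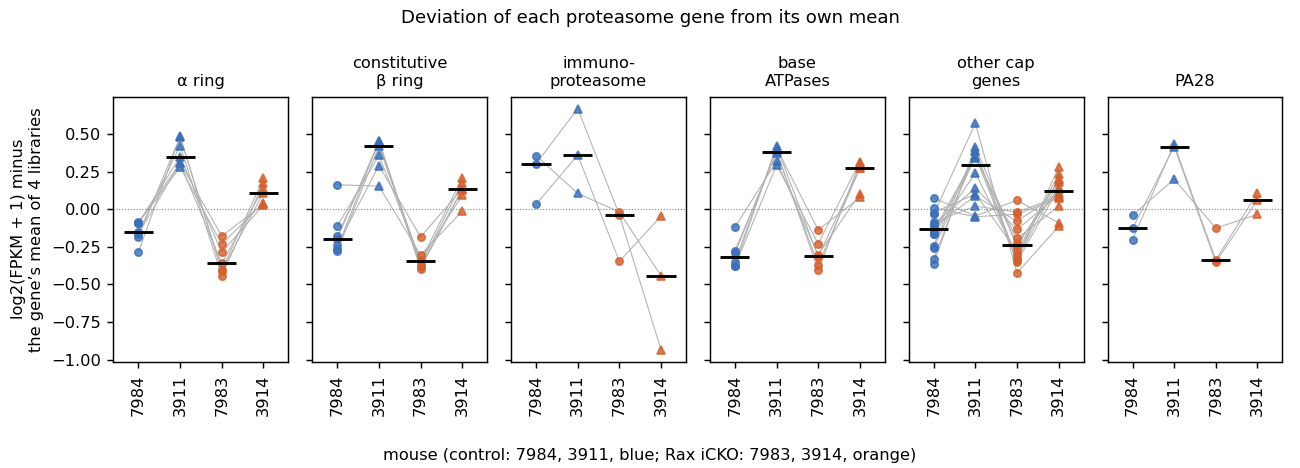
Deviation of log2(FPKM + 1) from the gene's mean of the 4 libraries, in panels by part of the particle, with 1 grey line per gene and a black bar at the median. Mice 7984 and 3911 (control, blue) stand left of mice 7983 and 3914 (*Rax* iCKO, orange). In the constitutive parts and PA28 control mouse 3911 is highest, and in the immunoproteasome panel both controls lie above both *Rax* iCKO mice.

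The α and constitutive β rings had similar differences between the genotypes, none past the test. All 14 of these genes had a log2 fold change below 0, with a median of -0.22 for the α ring and -0.25 for the constitutive β ring, and 13 of the 14 were lower in both pairs of mice, where 31.7% of all genes were. After quantile normalization the medians were -0.08 and -0.06, and with FPKM rescaled -0.08 and -0.11. Without control mouse 3911 the medians were 0.02 and 0.07, and without *Rax* iCKO mouse 7983 they were -0.04 and 0.01. Between mice 7983 and 7984, a pair that does not hold mouse 3911, the median differences were -0.20 and -0.19. With a mouse left out the pairs are unequal between the groups. The difference between the pairs and that between the genotypes then cannot be told apart. Without mouse 7984 the medians of the 2 rings were -0.48 and -0.49, and without mouse 3914 -0.47 and -0.46. *Psma2*, the most abundant gene of the gate-forming ring, had 303 and 481 FPKM in control mice 7984 and 3911 against 259 and 371 FPKM in *Rax* iCKO mice 7983 and 3914. *Psma4*, the least abundant, had 143 and 194 FPKM in control against 125 and 155 FPKM in *Rax* iCKO. The groups overlapped for both genes.

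Of the constitutive catalytic subunits, *Psmb5*, which carries the chymotrypsin-like site, had groups that did not overlap. It had 286 and 285 FPKM in control mice 7984 and 3911 against 207 and 253 FPKM in *Rax* iCKO mice 7983 and 3914. Group means were 285 ± 1.25 and 230 ± 32.8 FPKM (SD, n = 2), and the log2 fold change was -0.32 with a standard error of 0.24, and -0.17 without mouse 7983. After quantile normalization, and with FPKM rescaled to the same sum, the groups of *Psmb5* overlapped. *Psmb6*, which carries the caspase-like site, had 325 and 450 FPKM in control against 278 and 374 FPKM in *Rax* iCKO. *Psmb7*, which carries the trypsin-like site, had 95.5 and 147 FPKM in control against 82.2 and 119 FPKM in *Rax* iCKO. For *Psmb6* and *Psmb7* mouse 3914 lay above control mouse 7984, and the log2 fold changes were -0.25 (standard error 0.30) and -0.26 (standard error 0.31). Without control mouse 3911 they were -0.011 and 0.05, and without mouse 7983 -0.03 and 0.01.

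The immunoproteasome genes had the lowest median log2 fold change of the parts of the particle, all 3 with *Rax* iCKO libraries below both controls, although none passed the adjusted test. Over all members the groups did not overlap in 5 genes, each lower in *Rax* iCKO (*Psmb5*, *Psmb8*, *Psmb9*, *Psmb10* and *Psmd13*), and in no gene that was higher. Over all genes tested 14.1% were lower in this way and 15.4% were higher. The median log2 fold change of the 3 immunoproteasome genes was -0.46, and it was below 0 under every scaling and filter and without each library in turn. A test of the difference between them and the constitutive genes was not made, since a list chosen with results in view gets no test here.

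*Psmb8*, whose product replaces that of *Psmb5*, had the largest difference of all members. Its locus is chromosome 17 (GRCm38), 34198195 to 34201454. It had 8.53 and 11.3 FPKM in control mice 7984 and 3911 against 6.53 and 3.05 FPKM in *Rax* iCKO mice 7983 and 3914. These values stand for about 155, 149, 88 and 40 reads. Mouse 3914 was well below the others, and mouse 7983 was closer to control mouse 7984 than to mouse 3914. Group means were 9.90 ± 1.94 FPKM in control and 4.79 ± 2.46 FPKM in *Rax* iCKO (SD, n = 2), with a log2 fold change of -0.97, a standard error of 0.36 and a limma adjusted p of 1.0. Without mouse 3914 the log2 fold change was -0.52. Within the pairs, mouse 7983 differed from mouse 7984 by -0.34 and mouse 3914 from mouse 3911 by -1.60 on the log2 scale.

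*Psmb9*, on chromosome 17 from 34182030 to 34187330, encodes the replacement of Psmb6. It had 5.06 and 4.10 FPKM in control mice 7984 and 3911 against 3.68 and 2.49 FPKM in *Rax* iCKO mice 7983 and 3914, or about 74, 44, 40 and 27 reads. Control mouse 3911 and *Rax* iCKO mouse 7983 were 4 reads apart, so the gap between the groups was within counting error. The log2 fold change was -0.46 with a standard error of 0.29, and -0.25 without mouse 3914. With FPKM rescaled to the same sum the groups of *Psmb9* overlapped.

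*Psmb10*, on chromosome 8 from 105935728 to 105938392, encodes the replacement of Psmb7 and was the most abundant of the 3. It had 22.8 and 28.9 FPKM in control mice 7984 and 3911 against 17.3 and 21.6 FPKM in *Rax* iCKO mice 7983 and 3914, or about 322, 298, 181 and 223 reads. The *Rax* iCKO mouse was lower by a similar amount in each pair, by -0.38 and -0.41 on the log2 scale. The log2 fold change was -0.39 with a standard error of 0.24, and -0.23 without control mouse 3911. Unlike *Psmb8* and *Psmb9*, this gene was higher in mice 3911 and 3914 than in mice 7983 and 7984, by 0.31.

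**Figure D4:**
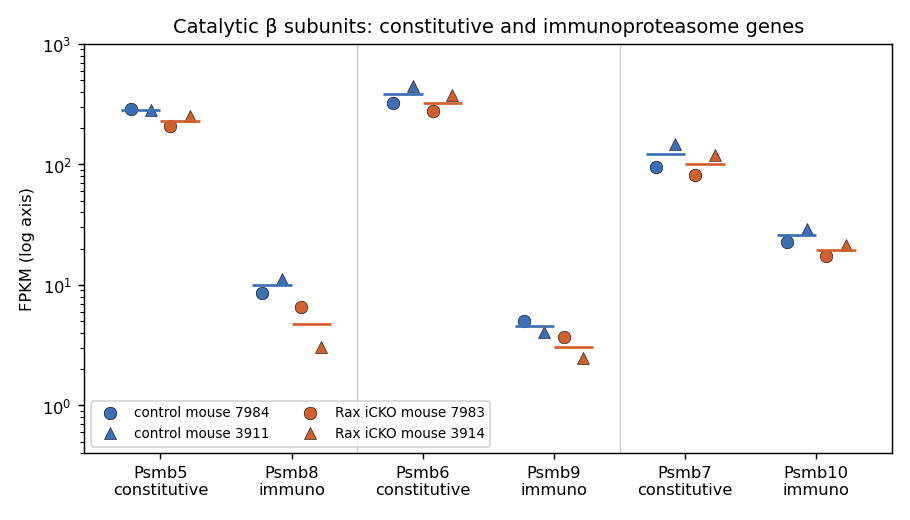
FPKM (log axis) of the constitutive catalytic genes *Psmb5*, *Psmb6* and *Psmb7*, each beside the immunoproteasome gene that takes its place, with 1 point per mouse and a line at each group's mean. Control mice are blue and *Rax* iCKO mice orange, circles are mice 7983 and 7984, and triangles are mice 3911 and 3914. Both *Rax* iCKO points lie below both control points for *Psmb5*, *Psmb8*, *Psmb9* and *Psmb10*, and *Psmb8* of mouse 3914 is at 3.05 FPKM.

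The immunoproteasome genes made up a small share of the catalytic β transcripts in every library. *Psmb8*, *Psmb9* and *Psmb10* together held 4.90% and 4.78% of the FPKM of the 6 catalytic genes in control mice 7984 and 3911, compared with 4.63% and 3.5% in *Rax* iCKO mice 7983 and 3914. Both *Rax* iCKO mice were below both controls, by -0.77 percentage points between the means of 4.84% ± 0.0853 and 4.07% ± 0.799 (SD, n = 2; exact permutation test, two-sided, p = 0.333). Without mouse 3914 the difference was -0.21 percentage points, so most of it rested on that library. By single pairs the groups overlapped. *Psmb8* was 2.89% and 3.81% of *Psmb8* and *Psmb5* together in control against 3.06% and 1.19% in *Rax* iCKO (exact permutation test, two-sided, p = 0.667). *Psmb10* was 19.3% and 16.4% of *Psmb10* and *Psmb7* together in control against 17.4% and 15.3% in *Rax* iCKO, so this subunit had by far the largest share of its pair.

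Microglia, which express immunoproteasome genes strongly, left some RNA in these libraries. All 10 microglial markers were above 0 in every library, and they summed to 61.3 and 73.1 FPKM in control mice 7984 and 3911, compared with 100 and 21.3 FPKM in *Rax* iCKO mice 7983 and 3914. Their sum was lowest in mouse 3914, where *Psmb8* and *Psmb9* were lowest too. Within the pair 7983 and 7984 the markers were higher in the *Rax* iCKO mouse, whereas the 3 immunoproteasome genes summed to 27.5 FPKM in that mouse and to 36.4 FPKM in its control. The part of microglial RNA in the immunoproteasome values was not tested.

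Among interferon and peptide-loading genes, those of peptide loading shared a direction and those of interferon signalling did not. Within both pairs of mice *Tap1*, *Tap2*, *Tapbp* and *B2m* were each below the control, where 31.7% of all genes were. Of a list of 11 interferon and peptide-loading genes 10 were tested, none was called by limma after adjustment, and the median log2 fold change was -0.18. *Stat2*, a factor of the type I interferon response, had 5.31 and 3.98 FPKM in control against 5.86 and 6.45 FPKM in *Rax* iCKO, so the groups did not overlap and the *Rax* iCKO mice were higher. *B2m*, the light chain of MHC class I, had 37.2 and 35.8 FPKM in control against 34.8 and 21.4 FPKM in *Rax* iCKO. The peptide transporter gene *Tap1*, which overlaps *Psmb9* on the opposite strand, had 7.80 and 4.27 FPKM in control against 6.56 and 3.63 FPKM in *Rax* iCKO. The groups also did not overlap for *B2m* and for *Ifngr2*, a chain of the interferon γ receptor, both lower in *Rax* iCKO.

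The PA28 genes were each a little lower in *Rax* iCKO within both pairs of mice, where 31.7% of all genes were. Their median log2 fold change was -0.23, and the groups overlapped for all 3. *Psme1* and *Psme2*, whose products form a mixed ring induced by interferon γ, kept a near constant ratio. *Psme1* had 99.5 and 155 FPKM in control mice 7984 and 3911 against 90.5 and 124 FPKM in *Rax* iCKO mice 7983 and 3914. *Psme2* had 79.5 and 116 FPKM in control against 67.9 and 90.8 FPKM in *Rax* iCKO. Their ratio was 1.25 and 1.33 in control against 1.33 and 1.36 in *Rax* iCKO (exact permutation test, two-sided, p = 0.333). *Psme3*, whose product forms a nuclear ring of its own, had 68.9 and 81.5 FPKM in control against 64.8 and 69.2 FPKM in *Rax* iCKO. Without control mouse 3911 the log2 fold change of *Psme1* was 0.09 and the median of the 3 genes -0.017. That median was -0.08 without mouse 7983, -0.55 without mouse 7984 and -0.45 without mouse 3914. After quantile normalization it was -0.10, and with FPKM rescaled -0.09.

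The ATPases of the base had a median difference near 0 between the genotypes, whose sign depended on the setting. Their median log2 fold change was -0.08, 5 of 6 were lower, and 3 of 6 were lower in both pairs of mice, where 31.7% of all genes were. *Psmc5* was the member with the largest rise in size, at 163 and 260 FPKM in control mice 7984 and 3911 against 181 and 265 FPKM in *Rax* iCKO mice 7983 and 3914, a log2 fold change of 0.09 with a standard error of 0.33. *Psmc6*, the least abundant ATPase, had 52.2 and 88.8 FPKM in control against 60.5 and 70.5 FPKM in *Rax* iCKO, so the direction differed between the pairs. The median of the ATPases was above 0 after quantile normalization (0.06), with FPKM rescaled to the same sum (0.06) and without mouse 7983 (0.24) or mouse 3911 (0.28). With FPKM rescaled the median of all genes was 0.12, above that of the ATPases. The ATPase median was -0.43 without mouse 7984 and -0.37 without mouse 3914.

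Among the other cap genes *Psmd13*, a lid subunit, had the largest difference. It had 80.6 and 123.1 FPKM in control mice 7984 and 3911 against 61.3 and 76.2 FPKM in *Rax* iCKO mice 7983 and 3914. Both *Rax* iCKO mice were below both controls, mouse 3914 by a small margin. Group means were 102 ± 30.0 and 68.8 ± 10.5 FPKM (SD, n = 2), the log2 fold change was -0.54 with a standard error of 0.28, and the limma adjusted p was 1.0. Mouse 7983 differed from mouse 7984 by -0.39 and mouse 3914 from mouse 3911 by -0.69 on the log2 scale, and without control mouse 3911 the log2 fold change was -0.24. *Sirt3*, a mitochondrial deacetylase gene that overlaps *Psmd13* on the opposite strand, had 33.9 and 46.4 FPKM in control against 35.2 and 48.5 FPKM in *Rax* iCKO.

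The remaining cap genes lay close to 0, with a median log2 fold change of -0.07 for all 14. This median was 0.03 after quantile normalization, 0.07 with FPKM rescaled to the same sum, and 0.10 without either mouse 7983 or mouse 3911, so its direction was not stable. With FPKM rescaled the median of all genes was 0.12, above that of the cap genes. Without mouse 7984 the median of the cap genes was -0.34, and without mouse 3914 it was -0.28. *Psmd8*, a lid subunit and the most abundant of them, had 179 and 254 FPKM in control against 155 and 218 FPKM in *Rax* iCKO. *Psmd2*, a scaffold subunit of the base that receives ubiquitin-like domains, had 134 and 154 FPKM in control against 137 and 156 FPKM in *Rax* iCKO. The lid subunit *Psmd3* had 74.6 and 71.5 FPKM in control against 72.4 and 78.1 FPKM in *Rax* iCKO. The groups overlapped for these 3 genes, and *Psmd3* differed less between the pairs of mice than most members, by 0.02 on the log2 scale. After quantile normalization both *Rax* iCKO mice were above both controls for *Psmd1*, a scaffold subunit of the base, and *Psmd2*, where 16% of all genes were. With FPKM rescaled this held for *Psmd1*, *Psmd2*, *Psmd3* and *Psmd9*, and for 24.8% of all genes. Of the base chaperones *Psmd9* had 14.0 and 15.1 FPKM in control against 14.7 and 15.8 FPKM in *Rax* iCKO, and *Psmd10* had 31.2 and 34.1 FPKM in control against 26 and 36.6 FPKM in *Rax* iCKO. The log2 fold changes of *Psmd5*, the further base chaperone, and of *Psmd14*, the deubiquitinase of the lid, were -0.15 and -0.17.

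The members of restricted tissues were at the edge of detection. *Psma8*, the α subunit of male germ cells, had 0.0526 and 0.0722 FPKM in the controls, about 1 read each, and was listed at 0 in both *Rax* iCKO libraries. *Psmb11*, the catalytic subunit of thymic epithelium, was between 0.0388 and 0.106 FPKM, or 2 to 4 reads per library. No difference was detectable at this depth for either gene.

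Proteins that assemble or regulate the particle were compared from lists outside the symbol rule. Of 13 assembly and cap genes tested none was called by limma after adjustment, the median log2 fold change was -0.01, and 11 of 13 were higher in mice 3911 and 3914 than in mice 7983 and 7984. *Pomp*, which matures the core particle, had 221 and 363 FPKM in control against 190 and 246 FPKM in *Rax* iCKO, a log2 fold change of -0.39 with a standard error of 0.32. Of the 13, 3 were lower in both pairs (*Pomp*, the chaperone gene *Psmg2* and the cap gene *Shfm1*), where 31.7% of all genes were.

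The transcription factors of proteasome genes did not share a direction. *Nfe2l1*, which encodes NRF1, the factor that raises proteasome genes when the protease is inhibited, had 46.6 and 38.9 FPKM in control against 50.3 and 44.3 FPKM in *Rax* iCKO, a log2 fold change of 0.15. *Nfe2l2*, which encodes NRF2, had 15.6 and 12.2 FPKM in control against 11.1 and 7.47 FPKM in *Rax* iCKO, a log2 fold change of -0.55 with a standard error of 0.28 and a limma adjusted p of 1.0. Both *Rax* iCKO mice were below both controls for *Nfe2l2*. Over the 5 regulators tested the median was -0.05.

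The ubiquitin genes were not lower as a group either, with a median log2 fold change of 0.03 over 11 genes and none called by limma after adjustment. *Ubb*, a polyubiquitin gene, had 2016 and 3422 FPKM in control mice 7984 and 3911 against 1864 and 2639 FPKM in *Rax* iCKO mice 7983 and 3914. *Sqstm1*, which encodes the autophagy receptor p62, had 220 and 299 FPKM in control against 249 and 332 FPKM in *Rax* iCKO. The order of the libraries for *Ubb* was that of most proteasome genes.

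Several members share their locus with another gene. Of the 42, 11 overlap another annotated gene, 9 of them one on the opposite strand, among them *Psmb8* (antisense *Gm20496*), *Psmb9*, *Psmb7* (*Nek6*), *Psme1* (*Emc9*) and *Psmd13*. Whether the counting used the strand is not given in the sources used here, so reads of such genes and their partners cannot be told apart.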

How the data were processed

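mTFP-positive cells of 2 control and 2 *Rax* iCKO mice were sequenced, and genotypes were taken from the labels. The authors mapped reads to mm10 and deposited 1 FPKM per gene and library. The submitters' processing notes name TopHat2 2.1.1, Bowtie2 2.2.8, SAMtools 0.1.18 and Cuffdiff 2.2.1. FPKM are relative to each library's mapped reads, so abundant genes shift the others.

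FPKM were used as deposited, without a count test. Groups were compared with limma 3.58.1 (R 4.3.3, trend) on log2(FPKM + 1) of the 12363 genes whose mean FPKM was 1 or more, and p-values were adjusted after Benjamini-Hochberg. On this scale the fold changes of low genes are understated. Shares were compared with exact permutation tests (scipy 1.17.1). Each library is 1 mouse, so p-values measure the spread between these mice. Depth was worked out from FPKM steps of genes with a GENCODE M21 transcript of at least 600 bases, and reads per gene are estimates. Overlaps and transcript lengths are from GENCODE M21 (GRCm38, the assembly of mm10), and locations and promoters from RefSeq (promoters on GRCm38.p6). The limma step was tested on simulated data.

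The members and lists were chosen with earlier results of these data known. Values by library are given for the catalytic and PA28 genes, the highest and lowest gene of each part of the particle, the 4 rises and the 5 largest falls, members at an unadjusted p under 0.05 and the genes of restricted tissues. One gene of the interferon list is not reported here. *Psmd1*, *Psmd5*, *Psmd10*, *Psmd11* and *Psmd14* were named after their values were seen, as were the counts by pairs of mice. The alternatives were pseudocount 0.1, no filter (genes at 0 in every library stayed out), a mean FPKM of 5 or more, equal medians, quantile normalization, limma without the trend, a block by mouse number, each mouse left out and, chosen after seeing the data, FPKM rescaled to the same sum.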

Additional observations from a re-analysis of the deposited data

How the results depend on the processing

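No proteasome gene was called at an adjusted p under 0.05 in any setting (limma), and the lowest adjusted p of a member was 0.10, for *Psmd13* with the block. Over all genes, the 3 calls became 0 without the filter, 0 at a mean FPKM of at least 5, 0 with FPKM rescaled to the same sum, 6 with equal medians and 71 with the replicate block, and between 15 and 20 when a mouse was left out. Members at an unadjusted p under 0.05 numbered 4 with the block (*Psmb5*, *Psmb8*, *Psmb10* and *Psmd13*, all lower, where 8.87% of all genes were lower at that level), 0 without the filter, 0 with FPKM rescaled and 0 to 2 with a mouse left out. The labels share no replicate number, and the pairing rests on the mouse numbers alone (the deviations of mice 7983 and 7984 had a Pearson correlation of 0.50 across genes).

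Members whose groups did not overlap and were higher numbered 2 after quantile normalization (16% of all genes) and 4 with FPKM rescaled (24.8% of all genes). Those that were lower numbered 3 with FPKM rescaled (*Psmb8*, *Psmb10* and *Psmd13*; 7.27% of all genes). Those lower in both pairs of mice numbered 17 after quantile normalization (29.6% of all genes) and 17 with FPKM rescaled (18% of all genes). The median of all genes moved to -0.02 at a mean FPKM of at least 5, to -0.03 with equal medians and to 0.12 with FPKM rescaled. The immunoproteasome share differed by -1.34 to -0.21 percentage points with a mouse left out.

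Of 227 alternatives for 19 named genes, 18 changed direction, in 9 genes, and the cause was not tested. After quantile normalization the log2 fold change of *Psmb2* was 0.0078 and that of *Psmc6* 0.032, and with FPKM rescaled *Psmc6* had 0.075. With a mouse left out the range was -0.63 to 0.033 for *Psma2*, -0.55 to 0.16 for *Psmb2*, -0.57 to 0.052 for *Psmb7*, -0.25 to 0.42 for *Psmc5*, -0.44 to 0.32 for *Psmc6*, -0.075 to 0.13 for *Psmd2*, -0.012 to 0.095 for *Psmd3*, -0.46 to 0.043 for *Psmd8* and -0.55 to 0.088 for *Psme1*. A fit with 1 mouse in a group assumes that it varies like the other group. Values under about 0.1 FPKM rest on a few reads.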
